A study of Mus musculus with 157 samples.

Results

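A group of 10 p53-responsive genes of the cell death programme was followed on the ribosomes of mouse B cells. They were Bax, Bbc3, Pmaip1, Fas, Tnfrsf10b, Perp, Aen, Trp53inp1, Eda2r and Ei24, taken by symbol as 10 of the 19600 genes of the count table, and each symbol matched 1 row. Splenic B cells of C57BL/6Babr mice, purified with a kit, were kept in LPS at 10 µg/ml. The LPS group had 48 h of LPS only, the LPS+ET group had the same LPS culture and etoposide at 20 µM for 4 h, and the LPS+ET+KU group had 47 h of LPS, then 1 h of KU55933 (10 µM) and then the same etoposide exposure. All groups therefore shared the LPS activation, none was an unstimulated control, and no group had KU55933 without etoposide. Cytoplasmic lysates made with cycloheximide, which holds ribosomes on mRNA, were separated on sucrose gradients. Fractions 4 to 7 were monosomes, 8 to 10 light polysomes and 11 to 16 heavy polysomes, and a library of mRNA 3′ ends was sequenced from each (PolyRibo-3′ RNA-seq).

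Each treatment had 4 gradients, named here by a tag in the column names (LUL15 to LUL18). The tag was taken as a library pool, and the column names do not say what it stands for. A pool consisted of 1 LPS, 1 LPS+ET and 1 LPS+ET+KU gradient. The 156 libraries of fractions 4 to 16 held 14724 to 4170688 counts (median 811932), 6 of them under 50000, and gradients summed to between 6404957 and 21449781 counts. One more library, of fraction 17 of an LPS gradient, held 777 counts, of which 1 was Bax and none belonged to the other 9 genes. Levels are in CPM, counts scaled to a common total per gradient. For LPS, LPS+ET and LPS+ET+KU in turn, 8 B cell marker mRNAs summed to 51182 to 101487, 45145 to 137966 and 38636 to 117301 CPM, and no marker in the table was without counts in any treatment. T cell markers (6 of 8 in the table) summed to 136 to 172, 98.2 to 297 and 75.3 to 365 CPM, and myeloid markers (7 of 8 in the table) to 91.7 to 170, 94.7 to 208 and 61.2 to 168 CPM, in the same order of treatments. The T cell sum was nearly all Lck, with means of 157, 165 and 167 CPM. Treatment means of Cd3d and Cd247 were 0.353 to 1.87 CPM, and those of Cd3e, Cd3g and Cd8a at most 0.171 CPM, with 0 counts in single gradients. No B or T cell marker tested passed edgeR in any comparison of ribosome-associated mRNA, and 1 myeloid marker (Cd14) was higher in LPS+ET+KU than in LPS. In such bulk samples a change in the number of cells that hold an mRNA and a change in mRNA per cell cannot be told apart.

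Etoposide holds topoisomerase II in its DNA-cleaving state, which produces double-strand breaks. Breaks activate the kinase ATM, which KU55933 inhibits, and ATM is an upstream activator of the transcription factor p53. p53 induces genes of both routes to apoptosis. In the mitochondrial route the BH3-only proteins PUMA (Bbc3) and NOXA (Pmaip1) bind the guardians of the BCL-2 family and release BAX (Bax), which permeabilises the outer mitochondrial membrane. In the receptor route FAS (Fas) and the TRAIL receptor (Tnfrsf10b) of the plasma membrane recruit caspase 8 once their ligands bind. Activated B cells carry FAS, and it serves to remove them after an immune response.

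p53 binds a response element of paired 10-base units, and since the genes below moved together their promoters were searched on both strands for that unit (the p53 consensus unit, with no mismatch). RefSeq promoter windows on GRCm38.p6, each from 250 bases before to 50 bases after a start, were at hand for 6 of the genes (9 windows). Bax, Aen and Ei24 held a unit, while the windows of Bbc3, Fas and Eda2r did not. The units are shown in capitals within 30 bases on the strand of the gene, 5′ to 3′.
Bax, chr7:45467080-45467109 (minus strand), unit from -201 to -192 of the start: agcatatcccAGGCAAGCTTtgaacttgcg
Aen, chr7:78895927-78895956 (plus strand), unit from 11 to 20 of one start and -121 to -112 of another: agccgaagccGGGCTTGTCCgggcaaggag
Ei24, chr9:36797325-36797354 (minus strand), unit from -10 to -1 of the start: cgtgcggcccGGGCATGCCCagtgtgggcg
Of 32851 promoter windows of this length, 2745 (8.36%) held at least 1 such unit. A pair of units with up to 13 bases between them was present in 24 windows (0.0731%), and in none of the 9 windows here. A match describes the letters of these windows only.

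In GRCm38 coordinates, most tags of 9 of the genes came from UTR sites or within 2 bases of an annotated end. Bax (ENSMUSG00000003873, chr7:45461695-45466898, minus strand), Bbc3 (ENSMUSG00000002083, chr7:16309616-16318205, plus strand), Pmaip1 (ENSMUSG00000024521, chr18:66458604-66465550, plus strand) and Tnfrsf10b (ENSMUSG00000022074, chr14:69767472-69784403, plus strand) were each counted at 1 site, in the 3′ UTR and at most 5 bases from a transcript end. Fas (ENSMUSG00000024778, chr19:34290659-34327770, plus strand) was counted at 3 UTR sites, with 82.9% of its counts at position 34327766, 9.20% at 34327601 and 7.86% at 34309345, the last being the end of a shorter coding transcript. Perp (ENSMUSG00000019851, chr10:18845071-18857073) and Ei24 (ENSMUSG00000062762, chr9:36779159-36797393) had 2 UTR sites each. Trp53inp1 (ENSMUSG00000028211, chr4:11156431-11174379) and Aen (ENSMUSG00000030609, chr7:78895854-78911209) had 1 UTR site and 1 site past the annotated end, and for Aen that outer site, 2 bases past the end, held 92.8% of the counts. Eda2r (ENSMUSG00000034457, chrX:97333840-97377216, minus strand) was the exception, with 46.8% of its counts at an intronic site 25777 bases from the nearest coding transcript end and 34.2% at a further intronic site, and 18.9% at a site 3 bases past the annotated end, so most of its counts did not come from the annotated end. Counts over all libraries were 59030 for Bax, 42575 for Pmaip1, 21553 for Trp53inp1, 7648 for Bbc3, 6905 for Tnfrsf10b and 4567 for Fas, and 365 to 1002 for Perp, Aen, Eda2r and Ei24.

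LPS+ET was first compared with LPS, to ask what DNA damage did to the ribosome-associated mRNA (counts of fractions 4 to 16 summed per gradient) of the death genes. All 10 rose, and for all 10 the 4 LPS+ET gradients lay above the 4 LPS gradients. Across the table edgeR called 12.7% of 12755 genes at an adjusted p under 0.01, 7.88% of them higher, and the gradients did not overlap, with LPS+ET above LPS, for 14.8% of genes. Their median log2 fold change was 2.55, against 0.03 over all genes tested. Fitted changes ran from 1.20 (Bax) to 5.91 (Perp). A gene can pass the expression filter through the group in which it is high, which bears on Perp and Eda2r. They had 0 to 3 and 7 to 16 counts per LPS gradient.

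**Figure D1:**
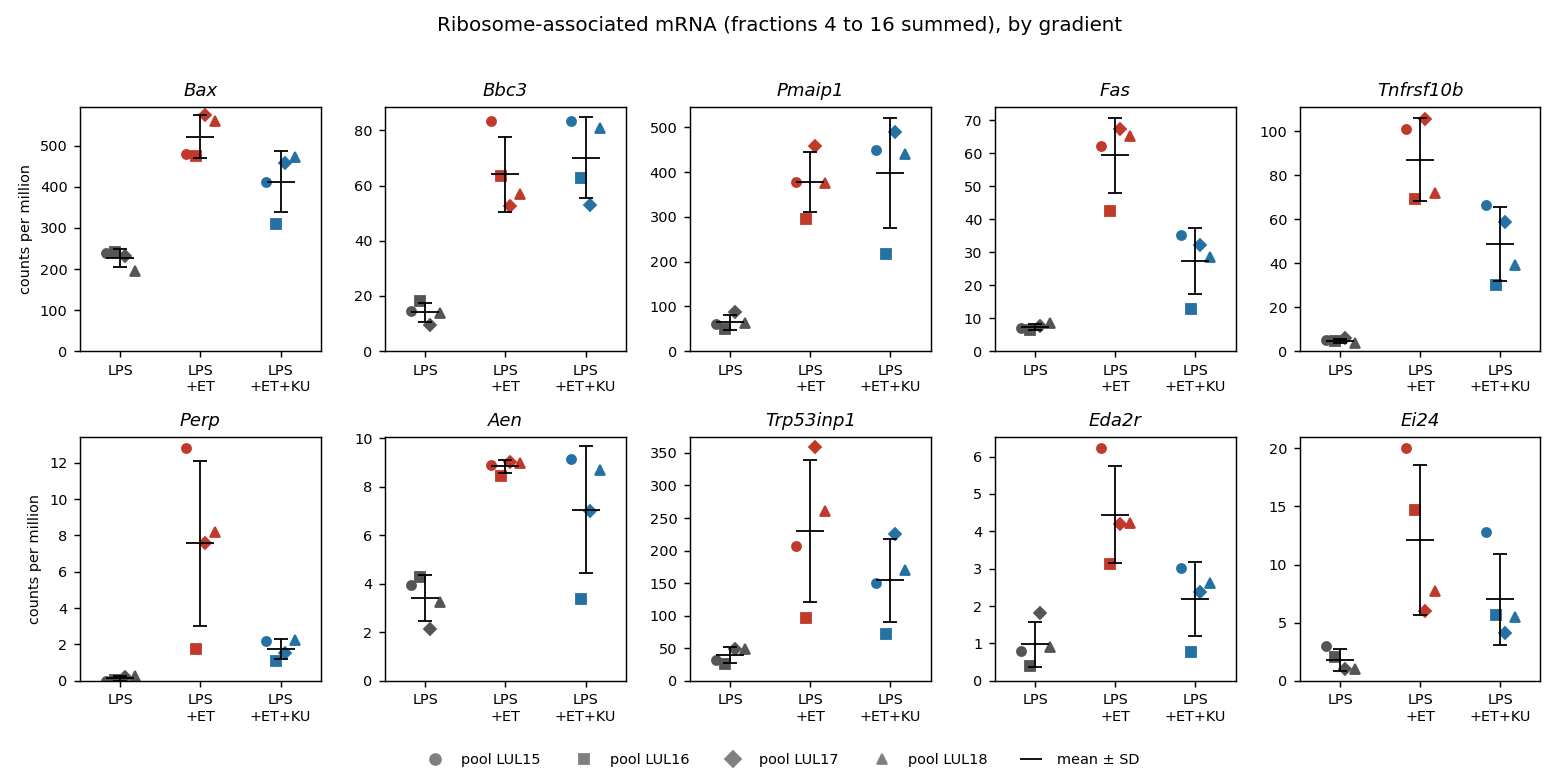
Ribosome-associated mRNA of the 10 genes in each gradient, in CPM on a linear axis, by treatment. Points are gradients with a marker for each library pool, bars are the mean ± SD of 4 gradients, and the LPS points lie below all LPS+ET points in each panel.

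Of the mitochondrial route, Bax, the pore-forming effector, stood at 240, 242, 231 and 194 CPM in the LPS gradients of pools LUL15 to LUL18. In LPS+ET it stood at 479, 475, 575 and 559 CPM in the same order of pools. The log2 fold change was 1.20 ± 0.17 (SE, edgeR adjusted p 0.000259), the smallest of the 10, and the lowest LPS+ET gradient was above the highest LPS gradient by more than the SD of either group (22.3 and 52.1 CPM). Bbc3, which encodes PUMA, went from 14.7, 18.1, 9.51 and 14.0 CPM in LPS to 83.4, 63.4, 52.5 and 57.0 CPM in LPS+ET. Its log2 fold change was 2.18 ± 0.23 (adjusted p 2.61e-05), and the groups were far apart although pool LUL17 was lowest in both. Pmaip1, which encodes NOXA, had 60.4, 48.8, 88.6 and 62.3 CPM in LPS and 379, 295, 459 and 376 CPM in LPS+ET, a log2 fold change of 2.54 ± 0.27 (adjusted p 2.78e-05). For Pmaip1 pool LUL17 was highest and pool LUL16 lowest in both treatments.

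The receptors of the extrinsic route rose too, and the size of a rise was not tested between genes. Fas had 6.98, 6.31, 7.70 and 8.45 CPM in the LPS gradients and 62.3, 42.6, 67.5 and 65.3 CPM in the LPS+ET gradients. The log2 fold change was 3.02 ± 0.29 (adjusted p 1.12e-05), with pool LUL16 lowest in both groups. Tnfrsf10b, the receptor of the death ligand TRAIL, went from 5.04, 4.49, 6.00 and 3.89 CPM to 101, 69.3, 106 and 72.0 CPM. Its log2 fold change of 4.17 ± 0.29 (adjusted p 1.08e-06) exceeded that of every other gene of the group but Perp. Eda2r, a further member of the TNF receptor family, rose by 2.25 ± 0.49 (adjusted p 0.00454), from 0.398 to 1.81 CPM in LPS to 3.13 to 6.24 CPM in LPS+ET.

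Among the remaining genes, Perp, which encodes a membrane protein of desmosomes and effector of p53 in apoptosis, was close to absent in LPS. It had 0, 1, 2 and 3 counts in the LPS gradients and 164, 11, 99 and 93 counts in the LPS+ET gradients. Summed over gradients, 367 counts against 6 gave a ratio of 80.1 (95% exact interval 36.4 to 220, counting error only). The fitted log2 fold change of 5.91 ± 0.72 (adjusted p 7.28e-05) rests on these few LPS counts and the prior count, and LUL16 held the fewest counts of the LPS+ET gradients. Trp53inp1, whose product promotes p53 activity and autophagy, went from 31.6, 26.3, 49.5 and 49.5 CPM to 207, 96.9, 359 and 260 CPM, a log2 rise of 2.56 ± 0.41 (adjusted p 0.000613). The LPS+ET gradients of Trp53inp1 were 231 ± 109 CPM (SD, n = 4), so their spread was wide, with LUL16 lowest, but none reached down to the LPS range. Aen, which encodes a nuclease that cuts DNA in dying cells, rose by 1.36 ± 0.30 (adjusted p 0.00527), from 2.15 to 4.26 CPM to 8.45 to 9.01 CPM. Ei24, which encodes a protein of the endoplasmic reticulum membrane, rose by 2.74 ± 0.50 (adjusted p 0.00145), from 0.994 to 3.02 CPM to 6.04 to 20.1 CPM.

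Calls of Aen and Eda2r were near the threshold and were lost when any 1 of several gradients was left out. Aen missed the threshold without any 1 of the gradients of LUL15, LUL17 and LUL18 in either treatment (log2 1.20 to 1.42, adjusted p 0.0127 to 0.0191), and Eda2r without the LPS gradient of LUL15, LUL16 or LUL18 or the LPS+ET gradient of LUL15, LUL17 or LUL18 (log2 1.95 to 2.26, adjusted p 0.0103 to 0.0188). Scaling by library totals alone, without TMM factors, moved the median of all genes from 0.03 to 0.14 (and from 0.09 to 0.21 in LPS+ET+KU against LPS), and all 10 were still called.

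**Figure D2:**
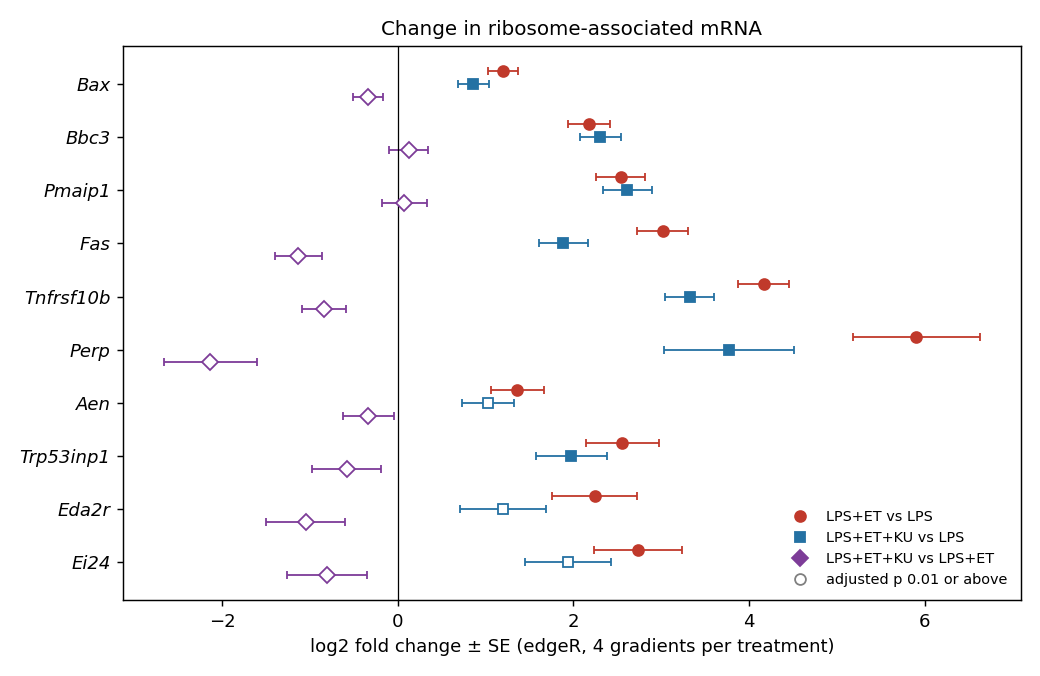
Log2 fold change of ribosome-associated mRNA with its standard error for each of the 10 genes in the 3 comparisons (edgeR). Filled symbols passed an adjusted p under 0.01, as all 10 did in LPS+ET against LPS and 7 did in LPS+ET+KU against LPS. Perp and Eda2r had few counts in LPS (0 to 3 and 7 to 16 per gradient).

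The second comparison, LPS+ET+KU against LPS+ET, asked how far these rises changed when ATM was inhibited before etoposide was added. None of the 10 genes passed edgeR with treatment as the only term, which called 0.455% of genes (0.235% lower). With the pool as a block 3 genes fell, Fas, Tnfrsf10b and Perp, where 6.36% of all genes were called and 3.59% were lower. Bbc3 and Pmaip1 were at 109% and 106% of their LPS+ET means, and the other 8 genes were between 23.3% (Perp) and 79.9% (Aen) of theirs. The median log2 difference of the 10 was -0.69, against 0.04 over all genes tested. It was -0.53 for 22 further p53 targets and regulators (the list below), so a lower median was not particular to the death genes.

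Fas stood at 35.2, 12.8, 32.4 and 28.5 CPM in the LPS+ET+KU gradients of LUL15 to LUL18, and all 4 were below the lowest LPS+ET gradient (42.6 CPM). The log2 difference was -1.13 ± 0.27 (adjusted p 0.0445), and -1.18 with the pool block (adjusted p 0.000727). Tnfrsf10b stood at 66.3, 30.1, 58.9 and 39.1 CPM, also without overlap with LPS+ET. Its log2 difference was -0.84 ± 0.25 (adjusted p 0.0986), and -0.87 with the block (adjusted p 0.00149). Perp stood at 2.21, 1.09, 1.52 and 2.23 CPM, and here the low LPS+ET gradient of LUL16 (1.72 CPM) lay within the LPS+ET+KU range. The log2 difference of Perp was -2.13 ± 0.53 (adjusted p 0.0517), and -1.96 with the block (adjusted p 0.00174).

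Bax stood at 412, 310, 458 and 472 CPM in LPS+ET+KU, just under its lowest LPS+ET gradient of 475 CPM. Its log2 difference was -0.34 ± 0.17 (adjusted p 0.359). Eda2r stood at 0.772 to 3.02 CPM, below the 3.13 CPM of its lowest LPS+ET gradient, with a log2 difference of -1.05 ± 0.45 (adjusted p 0.271). Gradients of LPS+ET+KU thus lay below all LPS+ET gradients for Bax, Fas, Tnfrsf10b and Eda2r, as they did for 4.74% of genes.

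The BH3-only genes had log2 differences near 0, and their difference from those of the other genes was not tested. Bbc3 had 83.4, 62.6, 53.01 and 81.0 CPM in LPS+ET+KU, a log2 difference of 0.13 ± 0.22 from LPS+ET (adjusted p 0.837). Pmaip1 had 448, 216, 489 and 439 CPM, a log2 difference of 0.08 ± 0.26 (adjusted p 0.922). For Bbc3 the range of LPS+ET+KU was nearly that of LPS+ET, and for Pmaip1 the groups overlapped while LUL16 (216 CPM) lay below and LUL17 (489 CPM) above the LPS+ET range of 295 to 459 CPM. The sign of the Pmaip1 value was not fixed, since it was -0.022 without the LPS+ET gradient of LUL16, -0.035 without the LPS+ET+KU gradient of LUL17 and -0.030 with each fraction scaled to CPM. Trp53inp1 (-0.58 ± 0.39, adjusted p 0.518), Ei24 (-0.80 ± 0.46, adjusted p 0.425) and Aen (-0.33 ± 0.29, adjusted p 0.638) were not called either.

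Each LPS+ET+KU gradient was also set against the LPS+ET gradient of its pool. The log2 ratio of LPS+ET+KU to LPS+ET was below 0 in all 4 pools for 7 genes (Bax, Fas, Tnfrsf10b, Perp, Trp53inp1, Eda2r and Ei24), in 3 for Aen and in 1 each for Bbc3 and Pmaip1. The share of all genes below 0 in all 4 pools was not computed, so these counts describe the 10 genes only. For Fas the log2 ratio was -0.82, -1.73, -1.06 and -1.19 in LUL15 to LUL18. For Bbc3 it was 0.00, -0.02, 0.01 and 0.51, and for Pmaip1 0.24, -0.45, 0.09 and 0.22. Pool LUL16 gave the lowest value of 8 of the 10 genes in LPS+ET and of 8 in LPS+ET+KU, against 4 in LPS. Without its 3 gradients, a fit added after the data were seen, Fas (-1.02, adjusted p 0.00329) and Perp (-2.26, adjusted p 0.0059) were called lower, where 1.23% of genes were. DESeq2 also called Fas (-1.15, adjusted p 0.00365) and Perp (-2.14, adjusted p 0.00239) lower (1.34% of genes), and at an adjusted p under 0.05 edgeR called Fas (1.45% lower). Without the LPS+ET gradient of LUL16 Perp was called (-2.44, adjusted p 0.00722).

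**Figure D3:**
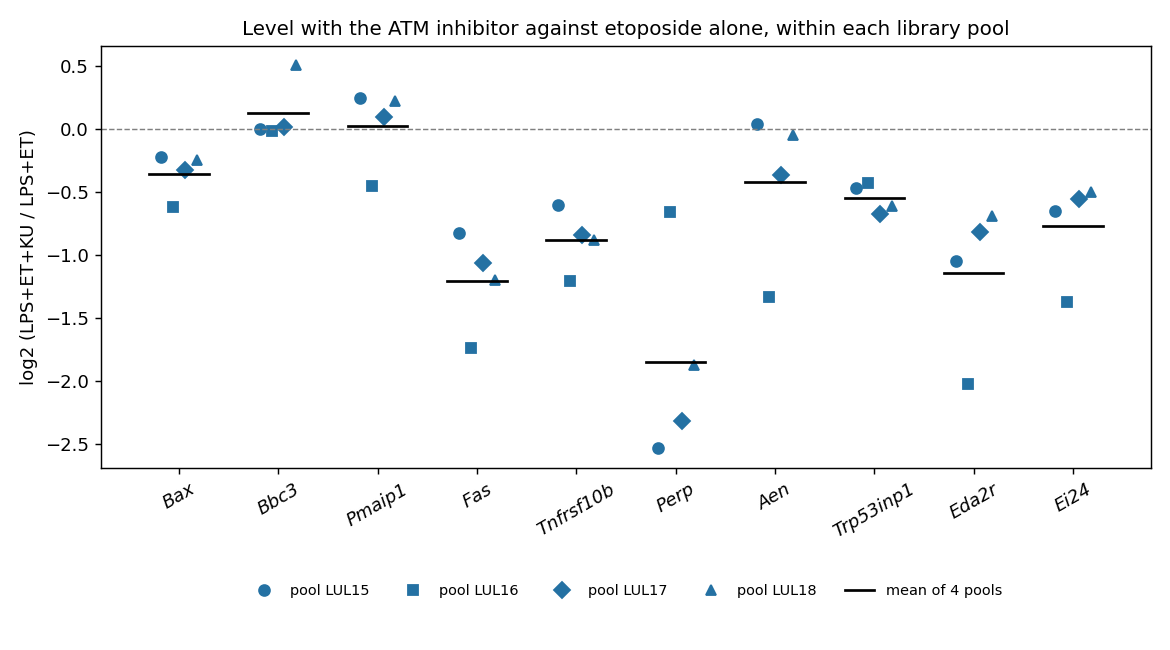
Log2 ratio of CPM in LPS+ET+KU to CPM in LPS+ET within each library pool, for the 10 genes. Points are pools, short lines their mean, and the horizontal line at 0 marks no difference. All 4 points lie below 0 for 7 genes, and those of Bbc3 and Pmaip1 lie on both sides. The share of all genes with 4 points below 0 was not computed.

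A ratio of 2 mRNAs in the same gradient needs no scaling between gradients, and such ratios were formed after these values had been seen. Fas counts per 100 Pmaip1 counts were 8.70 to 13.6, 14.4 to 17.3 and 5.93 to 7.86 in LPS, LPS+ET and LPS+ET+KU. Tnfrsf10b counts per 100 Pmaip1 counts were 6.25 to 9.20, 19.1 to 26.6 and 8.91 to 14.8. On this ratio the LPS+ET+KU gradients lay below all LPS+ET gradients for both receptors, and below the LPS gradients for Fas. Per 100 Bbc3 counts, Fas had 34.8 to 81.0, 67.2 to 129 and 20.4 to 61.0 counts, so LPS+ET+KU lay below LPS+ET again but overlapped LPS. Tnfrsf10b had 24.8 to 63.1, 109 to 201.02 and 48.0 to 111 counts per 100 Bbc3 counts, and here LPS+ET+KU overlapped both other treatments. Mean levels of Fas and Tnfrsf10b were lower in LPS+ET+KU than in LPS+ET, and those of Pmaip1 and Bbc3 were not. Lower ratios in LPS+ET+KU than in LPS+ET were therefore built into the choice of pairs, and are no separate evidence. The share of other gene pairs without overlap was not computed. These ratios are a description, with no test.

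The last comparison of levels set LPS+ET+KU against LPS, that is, damage under ATM inhibition against no damage. Of the 10 genes 7 were higher, where edgeR called 10.7% of genes and 6.25% higher. Perp, among the 7, had 0 to 3 counts per LPS gradient. Both BH3-only genes rose, Bbc3 by 2.31 (adjusted p 3.92e-05) and Pmaip1 by 2.62 (adjusted p 4.46e-05) on the log2 scale. The receptors Tnfrsf10b (3.33, adjusted p 9.37e-06) and Fas (1.89, adjusted p 0.000525) rose, as did Perp (3.78, adjusted p 0.00314), Trp53inp1 (1.98, adjusted p 0.00402) and Bax (0.86, adjusted p 0.00339). Aen (1.03, adjusted p 0.0256), Eda2r (1.20, adjusted p 0.0919) and Ei24 (1.94, adjusted p 0.0132) were not called, and Ei24 was with the pool block (1.98, adjusted p 1.07e-05, 14.9% of genes higher). Gradients did not overlap for 8 of the 10, all but Aen and Eda2r, as for 14.4% of genes.

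This comparison shares its LPS gradients with the first and its LPS+ET+KU gradients with the second. Without the LPS gradient of LUL15 it called 4 of the 10, losing Bax (adjusted p 0.0114), Perp (0.0111) and Trp53inp1 (0.0172). Bax was also lost without the LPS or the LPS+ET+KU gradient of LUL17 or LUL18 (0.0110 to 0.0155), Perp without the LPS gradient of LUL16 (0.0150), and Trp53inp1 without the LPS gradient of LUL16 or LUL18 or the LPS+ET+KU gradient of LUL17 or LUL18 (0.0101 to 0.0161). Aen was called without the LPS+ET+KU gradient of LUL16 (1.26, adjusted p 0.0016).

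Ordered by their means, 8 genes were highest in LPS+ET, intermediate in LPS+ET+KU and lowest in LPS. Bbc3 (14.1 ± 3.54, 64.1 ± 13.6 and 70.0 ± 14.6 CPM in LPS, LPS+ET and LPS+ET+KU) and Pmaip1 (65.0 ± 16.8, 377 ± 66.6 and 398 ± 123 CPM) were highest in LPS+ET+KU, but by less than the SD of either treated group. For Fas the 3 levels (7.36 ± 0.923, 59.4 ± 11.4 and 27.2 ± 10.0 CPM) and for Tnfrsf10b (4.85 ± 0.896, 86.9 ± 18.9 and 48.6 ± 16.9 CPM) were apart with no overlap of gradients. The same held for Bax (227 ± 22.3, 522 ± 52.1 and 413 ± 73.3 CPM), although its LPS+ET+KU range ended just under that of LPS+ET. Aen overlapped between LPS+ET+KU and both other groups.

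The fraction classes were then tested apart, on summed counts in which the deeper fractions of a class weighed more. In LPS+ET against LPS most of the genes tested were higher in each class, and the classes were not compared for the group. In monosomes all 7 genes that passed the expression filter were higher, where 6.44% of all genes were. In light polysomes 7 of 8 were higher (6.56% of all genes), and in heavy polysomes 8 of 10 (6.14% of all genes). Perp and Eda2r had too few counts for a test in the first pair of classes, and Ei24 in monosomes. A gene can pass that filter through the group in which it is high.

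Fas rose by 2.24 ± 0.39 in monosomes, 2.73 ± 0.35 in light and 3.45 ± 0.30 in heavy polysomes on the log2 scale. Tnfrsf10b rose by 3.58 ± 0.33, 4.00 ± 0.27 and 4.38 ± 0.32, Bbc3 by 2.28 ± 0.32, 1.98 ± 0.30 and 2.26 ± 0.26, and Pmaip1 by 2.68 ± 0.31, 2.59 ± 0.25 and 2.45 ± 0.43. Bax rose in monosomes (0.99 ± 0.19) and light polysomes (1.22 ± 0.20). In heavy polysomes the log2 difference of Bax was 1.35 ± 0.40 (adjusted p 0.0292), past the threshold with the pool block (1.19, adjusted p 0.000837, 10.5% of genes higher) or without 1 gradient of LPS+ET. Aen was called in monosomes (2.21, adjusted p 0.00399), on 1 to 6 counts per LPS gradient and 6 to 20 per LPS+ET gradient. In light polysomes Aen had a log2 difference of 1.53 (adjusted p 0.0138), called with the block (1.45, adjusted p 0.0056, 12.9% of genes higher), and in heavy polysomes one of 1.07 (adjusted p 0.0802), not called with it either.

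Several class calls changed when 1 gradient was left out. In heavy polysomes the LPS gradient of LUL16, if left out, took away the calls of Trp53inp1 (adjusted p 0.0121), Eda2r (0.0110) and Ei24 (0.0139), leaving 5. Other gradients that ended a heavy polysome call were LPS LUL15 for Eda2r (0.0129) and Trp53inp1 (0.0135), LPS+ET LUL15 for Eda2r (0.0113) and Ei24 (0.0201) and LPS LUL18 for Ei24 (0.0180), while Bax was called without LPS+ET LUL16 (0.00624). In monosomes Bax was lost without LPS LUL15, LPS LUL18 or LPS+ET LUL15 (0.0102 to 0.0128) and Aen without the LPS or LPS+ET gradient of LUL15 or LUL16 or the LPS gradient of LUL17 (0.0125 to 0.0203).

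In LPS+ET+KU against LPS+ET no gene was called in any class (0.213%, 0.292% and 0.572% of all genes in monosomes, light and heavy polysomes). With the pool block Fas fell in all 3 classes, by 1.47, 1.17 and 1.07 on the log2 scale, where 5.62%, 5.35% and 3.27% of genes were called. Tnfrsf10b fell with the block in monosomes by 0.96 and in light polysomes by 1.03, Trp53inp1 in light polysomes by 0.71, and Perp in heavy polysomes by 1.83. Against LPS, 5 of 7 genes tested in monosomes, 5 of 8 in light and 5 of 10 in heavy polysomes were higher in LPS+ET+KU (3.69%, 3.89% and 4.94% of genes), among them Bbc3, Pmaip1 and Tnfrsf10b in all 3. With the block the counts were 6, 7 and 8, where 13.1%, 11.9% and 11.1% of genes were higher.
Several of these calls also changed when 1 gradient was left out. Perp in heavy polysomes (4.26 ± 0.89, adjusted p 0.00496) was lost without any 1 of the LPS gradients or the LPS+ET+KU gradient of LUL15, LUL17 or LUL18 (adjusted p 0.0102 to 0.0214). Aen in monosomes (2.04 ± 0.43, adjusted p 0.00659), again on 1 to 6 counts per LPS gradient, was lost without the LPS gradient of LUL15, LUL16 or LUL17 or the LPS+ET+KU gradient of LUL15, LUL17 or LUL18 (adjusted p 0.0156 to 0.0348). Trp53inp1 in light polysomes (1.98 ± 0.37, adjusted p 0.00264) was lost without the LPS gradient of LUL15 or LUL16 or the LPS+ET+KU gradient of LUL18 (adjusted p 0.0106 to 0.0127). Without the LPS+ET+KU gradient of LUL16, calls were gained for Bax in monosomes (0.79, adjusted p 0.00593) and light polysomes (0.93, adjusted p 0.0029) and for Trp53inp1 in heavy polysomes (2.22, adjusted p 0.00373).
Fas was higher in LPS+ET+KU than in LPS in light (1.604 ± 0.35, adjusted p 0.00692) and heavy polysomes (2.41 ± 0.29, adjusted p 0.00011), while in monosomes it had a log2 difference of 0.87 ± 0.38 (adjusted p 0.148). The light polysome call of Fas was lost without the LPS or LPS+ET+KU gradient of LUL15 or LUL18, the LPS gradient of LUL16 or the LPS+ET+KU gradient of LUL17 (adjusted p 0.0148 to 0.0284).

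Where along the gradient an mRNA sits is a measure apart from its level. Equal RNA concentrations went into the fraction libraries, so shares here are of CPM per fraction with equal weight, and an mRNA spread evenly over the 13 fractions would have 46.2% in heavy polysomes. Over the 8000 genes that averaged at least 100 counts in a gradient, the median heavy polysome share was 55.2%, 53.9% and 54.7% in LPS, LPS+ET and LPS+ET+KU.

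Bax mRNA lay toward the lighter fractions in each treatment. Its heavy polysome share was 25.2 ± 4.44%, 28.7 ± 5.69% and 26.8 ± 6.57% in LPS, LPS+ET and LPS+ET+KU, at percentiles 7.88, 9.08 and 8.1 of all genes. In all 12 gradients its highest fraction was 9 or 10, the end of the light polysomes, and the share fell from 9.4% in fraction 11 to 3.6% in fraction 12 in LPS. Pmaip1 also had its highest mean share in fractions 9 or 10, and a heavy polysome share of 39.2%, 37.2% and 38.1%. Bbc3 was highest in fraction 11 or 12, with 46.9%, 44.2% and 47.8% in heavy polysomes, and Trp53inp1 was spread more evenly with 55.3%, 50.2% and 55.6%.

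**Figure D4:**
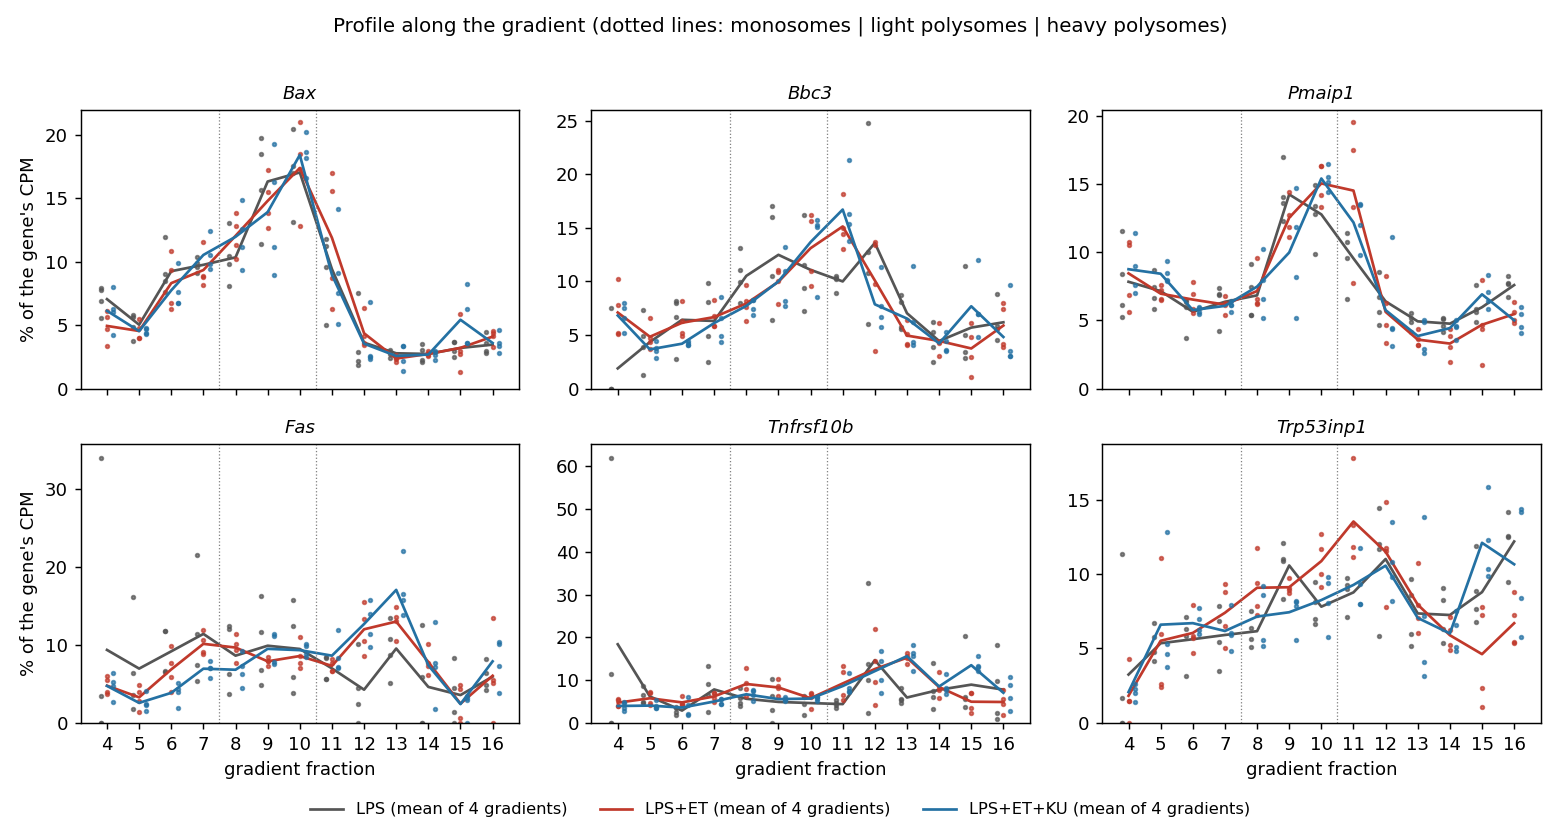
Share of each gene's CPM in fractions 4 to 16, in percent, for Bax, Bbc3, Pmaip1, Fas, Tnfrsf10b and Trp53inp1. Lines are means of 4 gradients per treatment and dots are gradients. Bax is highest in fraction 10 in each treatment, and Fas and Tnfrsf10b are highest in fraction 13 in both etoposide groups.

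The heavy polysome share of Fas was 34.98 ± 15.8%, 48.7 ± 5.96% and 56.1 ± 2.48% in LPS, LPS+ET and LPS+ET+KU, and its highest mean share was in fraction 7, a monosome fraction, in LPS and in fraction 13 in both etoposide groups. The LPS peak was not sharp, at 11.4 ± 7.19% on 22 counts in fraction 7 against 9.55% in fraction 13, and the highest fraction of single gradients ran from 4 to 14 in LPS, 10 to 16 in LPS+ET and 12 to 13 in LPS+ET+KU. Per gradient, the LPS shares were 18.9%, 49.8%, 23.98% and 47.2% for LUL15 to LUL18. The LPS+ET shares were 50.1%, 42.5%, 45.9% and 56.4%, so the groups overlapped. The LPS+ET+KU shares were 59.5%, 53.7%, 56.2% and 55.2%, above all LPS gradients, and for how many of all genes this held was not computed. Shallow libraries weigh as much as deep ones here. Over the LPS gradients Fas had 3 counts in fraction 4, reaching 46.6 CPM in a gradient, and the monosome share of LUL15 was 64.2%. From summed counts, where deeper fractions weigh more, heavy shares of Fas were 40.2%, 53.2%, 36.8% and 59.8% in LPS. They were 37.5% to 72.7% in LPS+ET and 51.1% to 69.9% in LPS+ET+KU, so all 3 groups overlapped. Tnfrsf10b had 49.5 ± 21.3%, 55.3 ± 3.72% and 65.4 ± 4.12% in heavy polysomes, but its LPS profile rests on 249 counts. The LPS gradient of LUL18, at 18.4%, lay below the other LPS gradients at 54.1% to 66.5%. The fraction 4 library of that gradient held 14724 counts in all, and its heavy share of Tnfrsf10b from summed counts was 57.4%. Profiles of Perp, Aen, Eda2r and Ei24 were too sparse to describe by fraction, with 46, 13, 22 and 23 of the 52 LPS libraries at 0 counts.

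A change of the heavy-to-monosome ratio was tested across all genes with a term for each gradient, which removes the change in level. The class sums were of counts, so fractions within a class weighed by their depth, unlike the equal weights of the shares above. The gradient term does not remove that weighting. In the LPS+ET gradient of LUL16, for example, fraction 13 held 1501250 counts, and fractions 11 and 12 held 54686 and 33476. Fas was the only gene of the 10 to be called, higher by 1.26 ± 0.30 (log2, edgeR adjusted p 0.00493) in LPS+ET than in LPS and by 1.59 ± 0.30 (adjusted p 0.000418) in LPS+ET+KU than in LPS. Such changes were called for 5.1% and 5.38% of all genes. The ratio of heavy polysome CPM to monosome CPM of Fas was 0.402, 1.03, 0.629 and 0.821 in the LPS gradients of LUL15 to LUL18. It was 1.88, 1.62, 1.48 and 2.04 in LPS+ET and 2.37, 2.95, 2.18 and 1.89 in LPS+ET+KU, so both etoposide groups lay above LPS and overlapped each other. How many of all genes had ratios without overlap was not computed. Between the etoposide groups the log2 difference of Fas was 0.33 ± 0.25 (edgeR adjusted p 0.648), in a comparison in which 0.181% of genes were called.

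The Fas result rests on 12 to 24 monosome counts per LPS gradient. In LPS+ET against LPS it missed the threshold without LPS LUL15 (1.03, adjusted p 0.0514), LPS LUL17 (1.19, 0.0133), LPS LUL18 (1.34, 0.0118) or LPS+ET LUL18 (1.22, 0.0142), and with limma on the heavy polysome share it was not called against LPS in either etoposide group (0.90, adjusted p 0.218, and 1.33, adjusted p 0.0724).
The other receptor, Tnfrsf10b, had ratios of 0.763 to 1.42 in LPS, 2.16 to 2.43 in LPS+ET and 2.04 to 3.88 in LPS+ET+KU. Neither etoposide group overlapped LPS, but the change was not called, and the share of all genes without such overlap was not computed. Its log2 changes against LPS were 0.88 ± 0.31 (adjusted p 0.0575) and 1.00 ± 0.31 (adjusted p 0.0292), on 7 to 10 monosome counts per LPS gradient. For Bax (0.34, adjusted p 0.447), Pmaip1 (-0.22, adjusted p 0.64), Bbc3 (0.03, adjusted p 0.969) and Trp53inp1 (-0.21, adjusted p 0.7) the change in LPS+ET was not called.

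**Figure D5:**
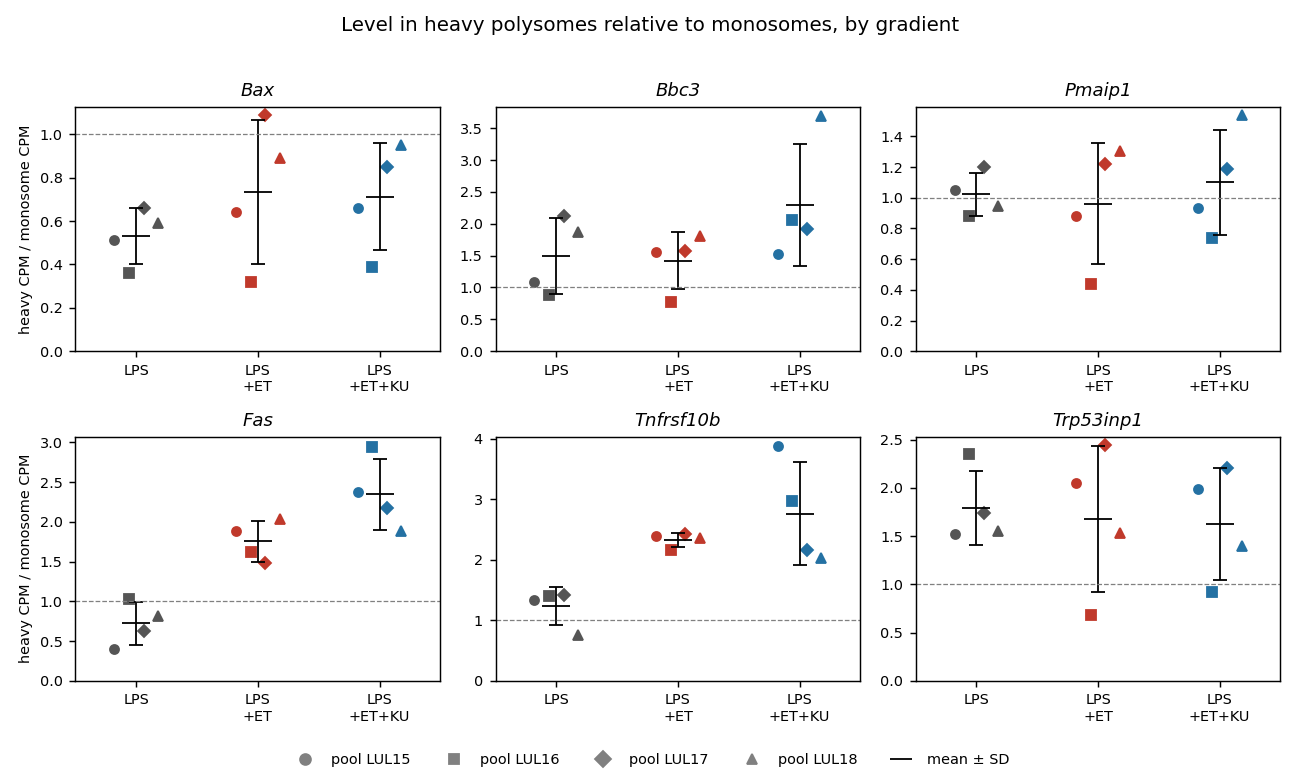
Ratio of heavy polysome CPM to monosome CPM in each gradient, for 6 genes by treatment, with the mean of 4 gradients and a dashed line at a ratio of 1. Fas lies between 0.402 and 1.03 in LPS and at 1.48 or more in both etoposide groups. The share of all genes without overlap was not computed.

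Within a treatment, heavy polysomes were also compared with monosomes directly, and 51.4%, 49.6% and 54.4% of genes were called in LPS, LPS+ET and LPS+ET+KU. Bax was lower in heavy polysomes than in monosomes in all 3, a contrast that leaves out the light polysomes, where its share was highest. Its log2 ratios were -1.50 ± 0.18, -1.16 ± 0.18 and -1.23 ± 0.18 (edgeR adjusted p 6.14e-09, 9.44e-07 and 2.31e-07). The median of all genes was 0.11, 0.09 and 0.09. Pmaip1 was lower in heavy polysomes in LPS+ET (-0.75 ± 0.17) and LPS+ET+KU (-0.59 ± 0.17, lost without LUL15 or LUL16 at adjusted p 0.0248 and 0.0193). Fas was lower in heavy polysomes in LPS (-1.08 ± 0.25), and Tnfrsf10b was higher in LPS+ET (0.60 ± 0.15) and LPS+ET+KU (0.72 ± 0.15). These values depend on the scaling between classes. With library totals in place of TMM factors the median of all genes was 0.65, 0.71 and 0.77, Bax stayed negative (-0.94, -0.54 and -0.54) but was called in LPS alone, and the calls of Fas in LPS (-0.54, adjusted p 0.0476) and of Pmaip1 in LPS+ET (-0.13, adjusted p 0.556) were lost. Pmaip1 changed sign in LPS (0.023) and LPS+ET+KU (0.10), as did Tnfrsf10b in LPS, from -0.28 to 0.26.

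In a test of the whole profile, with treatment and its interaction with the 13 fractions against fraction alone, all 10 genes differed between LPS+ET and LPS (31% of genes). Between LPS+ET+KU and LPS+ET, Fas (adjusted p 2.21e-05), Perp (3.09e-07), Tnfrsf10b (0.00603) and Eda2r (0.00593) differed, where 8.01% of genes did, and Ei24 was added with the pool block (0.00524, 18.3% of genes). Between LPS+ET+KU and LPS all 8 genes tested differed (32.7% of genes). This test takes level and shape together and treats the 13 libraries of a gradient as independent. With the interaction alone and a term per gradient none of the 10 was called in any comparison, the nearest being Fas in LPS+ET+KU against LPS (adjusted p 0.02).

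Other genes of the p53 response gave a setting for these values. Of a list of 24 further p53 targets and regulators, 22 were in the table. In LPS+ET against LPS 13 rose, none fell and 9 were not called (median log2 2.11, against 0.03 over all genes), where 7.88% of all genes rose. The largest rises were of Phlda3 (5.29), Plk2 (4.67), Cdkn1a (4.64), Ccng1 (3.35), Zmat3 (3.31) and Ercc5 (3.07), with Cdkn1a being the gene of the cell cycle inhibitor p21. Trp53 itself had a log2 difference of 0.47 ± 0.22 (adjusted p 0.148). In LPS+ET+KU against LPS+ET the median log2 difference of the list was -0.53, with 4 of the 22 above 0. The list had 1 gene called there, Ppm1d, a phosphatase that dampens ATM and p53 signalling. It fell by 1.14 ± 0.15 (edgeR adjusted p 0.00179) and was picked out after its value had been seen. Against LPS 12 of the 22 were higher in LPS+ET+KU, as were 6.25% of all genes.

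The rest of the apoptosis machinery moved less as a list. Of 30 genes 29 were in the table and 24 were tested. In LPS+ET against LPS 3 rose, 2 fell and 19 were not called (median log2 -0.06), where 12.7% of all genes were called and 7.88% rose. Apaf1, the scaffold of the apoptosome, rose by 1.62 ± 0.25 (adjusted p 0.000439), and Bcl2l11, which encodes the BH3-only protein BIM, by 0.97 ± 0.16 (adjusted p 0.000903). Bcl2, an inhibitor of apoptosis that BH3-only proteins bind, fell by 1.95 ± 0.28 (adjusted p 0.000274), at 254 ± 22.5 CPM in LPS and 65.9 ± 24.7 CPM in LPS+ET. Bid, a BH3-only gene that links the receptor and mitochondrial routes, fell by 1.42 ± 0.21 (adjusted p 0.000308). None of the 24 was called between LPS+ET+KU and LPS+ET (0.455% of all genes). In LPS+ET+KU 1 was higher and 2 were lower than in LPS, where 10.7% of all genes were called.

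The genes whose levels followed those of the main 4 most closely over the 12 gradients were found by Pearson's r of log2 CPM, given as a description since all values share the same libraries and treatments. For Bax they were Zkscan5 (0.985), Kank3 (0.983) and Hic1 (0.982). For Bbc3 they were C920025E04Rik (0.988), Phlda3 (0.973) and Gpr132 (0.971), and for Pmaip1 Zfp874a (0.987), Ak1 (0.984) and Ager (0.984). For Fas they were Hic1 (0.991), Mdm2 (0.991), which encodes the ubiquitin ligase of p53, and P2rx7 (0.990). Among the 10 genes themselves r ran from 0.631 (Trp53inp1 with Ei24) to 0.962 (Pmaip1 with Tnfrsf10b).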

How the data were processed

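PolyRibo-3′ RNA-seq libraries of sucrose gradient fractions were analysed. The authors reverse transcribed equal RNA concentrations of each fraction with barcoded primers carrying random bases, removed PCR duplicates by those bases, trimmed A tracts, aligned to GRCm38 and summed tags at poly(A) sites per Ensembl gene (the submitters' processing notes name TopHat2 2.0.12, HTSeq and DESeq2 1.6.3). The deposited values are raw counts. A fraction's library total does not measure its mRNA. Column names gave treatment, fraction and the tag taken as the pool, and 79 columns matched 1 labelled sample and 78 a group only.

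Counts were summed per gradient and class and tested with edgeR 4.0.16 (TMM, filterByExpr, quasi-likelihood F-test, two-sided, all 12 gradients, no block as in the study's methods), adjusted over all genes by Benjamini-Hochberg and called under 0.01. The distribution fit used the 36 class sums with a term per gradient. The methods name 4 biological replicates, and the pool tag was taken to pair them, which the column names do not state. Deviations of same-pool gradients correlated at r 0.305 to 0.799 (12 of 12 over 0.1), those of different pools at -0.628 to 0.284. Alternatives were a pool block, RLE factors, library totals, DESeq2 1.42.0, no low-count filter, only the 8 gradients compared, limma 3.58.1 on log2(CPM + 1) or on heavy shares (offset 0.5), an adjusted p under 0.05, no libraries under 50000 counts, each gradient left out, and LUL16 left out. Library totals and the omission of LUL16 were added after the data were seen. R 4.3.3, Python 3.11.15, pandas 2.3.3, numpy 2.4.6, scipy 1.17.1 and matplotlib 3.10.9 were used, and scripts were tested on simulated data. Site annotation came from GENCODE M21. Intervals cover counting error only.

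All 10 genes are named. Of each further list up to 6 called genes with the largest change are named, and for Bax, Bbc3, Pmaip1 and Fas the 3 genes of highest r. One gene that met this rule is not reported here. The members and lists were chosen with earlier results of these data known.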

Additional observations from a re-analysis of the deposited data

Results flagged for a closer look

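Of the changes in heavy-to-monosome ratio between treatments, 2 were called, both for Fas. The log2 contrast of heavy polysomes to monosomes was higher by 1.26 in LPS+ET than in LPS and by 1.59 in LPS+ET+KU than in LPS (edgeR, class by treatment interaction). The first was lost without any 1 of 4 gradients (LPS LUL15, LUL17 or LUL18, or LPS+ET LUL18) and both were lost on the heavy polysome share. No gradient stood far from the other 3 of its group by Dixon's criterion in the 59 groups of 4 examined, a criterion that flags about 1 group in 20 by chance.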

How the results depend on the processing

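In LPS+ET against LPS, all genes called came to 2875 at an adjusted p under 0.05 and 3403 with the pool block, against 1618. In the comparison of LPS+ET+KU with LPS+ET, the 10 genes gave 0 calls, 1 at 0.05, 3 with the block, 2 without LUL16 and 2 with DESeq2, and all genes gave 58, 319 at 0.05, 811 with the block, 275 without LUL16, 412 with DESeq2, 21 with limma on CPM and 0 with only the 8 gradients compared (1603 at an unadjusted p under 0.05). In LPS+ET+KU against LPS, all genes gave 1361, 2903 at 0.05, 3589 with the block, 2263 with DESeq2 and 875 with limma. With the block, the 10 genes gave calls between LPS+ET+KU and LPS+ET of 2 in monosomes, 3 in light and 2 in heavy polysomes, and against LPS of 6, 7 and 8 in the same order of classes. The heavy share with limma gave 0 calls with and without the block in both comparisons with LPS, the interaction alone gave 0 in all 3, and library totals gave 5 in heavy polysomes against monosomes of LPS+ET+KU. Between LPS+ET+KU and LPS+ET the sign turned for Pmaip1 (-0.030 with CPM and limma, -0.035 to 0.29 with 1 gradient left out), and it turned with library totals for Pmaip1 in LPS (0.023) and LPS+ET+KU (0.10) and Tnfrsf10b in LPS (0.26) in heavy polysomes against monosomes. The causes were not tested.

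With 1 gradient left out, calls of the 10 ran from 8 to 10, 0 to 1 and 4 to 8 for ribosome-associated mRNA (LPS+ET against LPS, LPS+ET+KU against LPS+ET, LPS+ET+KU against LPS), and of all genes from 1082 to 1761, 19 to 172 and 755 to 1708. They ran from 5 to 8, 0 to 0 and 4 to 6 in monosomes, 7 to 9, 0 to 0 and 3 to 6 in light, and 5 to 9, 0 to 0 and 4 to 6 in heavy polysomes, and from 0 to 1, 0 to 0 and 1 to 1 for the heavy-to-monosome ratio change. Of the values of the 10 genes with 1 gradient left out, 756 kept direction and side of the threshold, 68 lost their call, 6 gained one and 2 turned in sign. Low-count genes (Perp, Aen, Eda2r, Ei24) limit what the single fractions can show.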
